A study of Mus musculus with 3 samples.

Results

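The clustered protocadherin genes were examined in a ChIP-seq series from E13.5 mouse cortices. Members were the protein-coding genes of GENCODE M21 whose symbols name an α, β or γ protocadherin of the clusters, and the rule found 57 of 21951 protein-coding genes. They comprised 12 genes of the α cluster (Pcdha1 to Pcdha12), 22 of the β cluster (Pcdhb1 to Pcdhb22), 12 of the γA type, 6 of the γB type and 5 C-type genes (Pcdhac1, Pcdhac2, Pcdhgc3, Pcdhgc4 and Pcdhgc5). GENCODE gives 2 of these genes the symbol Pcdha11, and the one that starts at 37005203 is called Pcdha10 here, as RefSeq names that position. The rule used no ChIP value.

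The series held 3 libraries of embryonic brain cortex, namely 1 input, 1 NF-Y-ChIP made with an NF-YC antibody and 1 H3K4me3-ChIP. The labels give no genotype, strain or treatment that would separate them, and the cortices were fixed as whole tissue, so all cell types of the cortex contributed. The authors called peaks with MACS2 and deposited a list of 733 peaks for NF-Y-ChIP and 18816 for H3K4me3-ChIP. The study counts more H3K4me3-positive regions than this list holds, although its peaks are numbered without a gap, and a region outside the list was not analysed here. Each peak has a fold enrichment, the ratio of the signal at its summit to the local background, and a p-value and a q-value, both deposited as −log10. With 1 library per antibody there was no replicate error, no test between groups was possible and no p-value was computed. Read counts are not part of the lists. The depth is therefore unknown, and a missing peak says only that none was called at this depth.

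Clustered protocadherins are cadherin-related adhesion proteins at the surface of neurons. In the α and γ clusters, each variable first exon has a promoter of its own and encodes the outside of the protein, the membrane span and part of the inside, and splicing joins it to constant exons that are shared by the cluster. β genes lack such shared exons. Single neurons are known to use a small, random-like choice of the α, β, γA and γB promoters, with the factors CTCF and cohesin and with DNA methylation taking part in the choice, whereas the C-type promoters are used by many neurons alike. H3K4me3 is a histone mark of active promoters, and NF-Y is a transcription factor of several subunits that binds CCAAT.

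The tissue label was checked against marker genes. Within 1 kb of a TSS, H3K4me3-ChIP peaks were present at 8 of 8 dorsal telencephalon markers, among them Neurod6 (4.61-fold) and Pax6 (38.3-fold), and at 3 of 3 ventral markers, Dlx2 (47.0-fold), Gsx2 (15.1-fold) and Nkx2-1 (6.64-fold). Over all protein-coding genes the share was 62.1%, so a count out of 3 says little. A peak was present at 0 of 3 microglial and 0 of 3 liver markers, and at 1 of 3 each for endothelium (Cldn5, 9.38-fold), erythroid cells (Klf1, 30.1-fold) and muscle (Actn2, 17.5-fold). Their part in the results on the protocadherins was not tested.

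H3K4me3-ChIP divided the family by type of gene. A TSS was the 5′ end of a protein-coding transcript, and a gene was called marked when the edge of an H3K4me3-ChIP peak lay within 1 kb of one. By this rule 11 of the 57 members were marked (19.3%, Wilson 95% confidence interval 11.1 to 31.3%), against 62.1% of all protein-coding genes. The marked members were 4 of the 5 C-type genes, 6 of the 12 γA genes and 1 of the 6 γB genes. Of the 12 genes from Pcdha1 to Pcdha12, 0 were marked, which allows a share of up to 24.2% (upper Wilson limit), and of the 22 β genes 0 were marked, which allows up to 14.9%. The α and β genes together gave 0 of 34, with an upper limit of 10.2%. The intervals cover counting only, and members of 1 cluster share a locus and are not replicates.

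All members lie on the plus strand of chromosome 18 (GRCm38), in the order α, β and γ. The α cluster runs from 36930184 to 37187661 (257 kb), the β cluster from 37264938 to 37524479 (260 kb) and the γ cluster from 37661793 to 37841873 (180 kb). Neighbouring gene starts lie a median of 7323 bp apart in α, 7781 bp in β and 5346 bp in γ. With 5 kb added to each side of the whole locus, the 922 kb held 17 H3K4me3-ChIP peaks, or 18.4 per Mb against 6.90 per Mb over the genome. The α cluster held 3 of them, the β cluster 0 and the γ cluster 10. The locus as a whole was therefore richer in peaks than the genome, while its marked genes were a smaller share than among all genes.

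**Figure D1:**
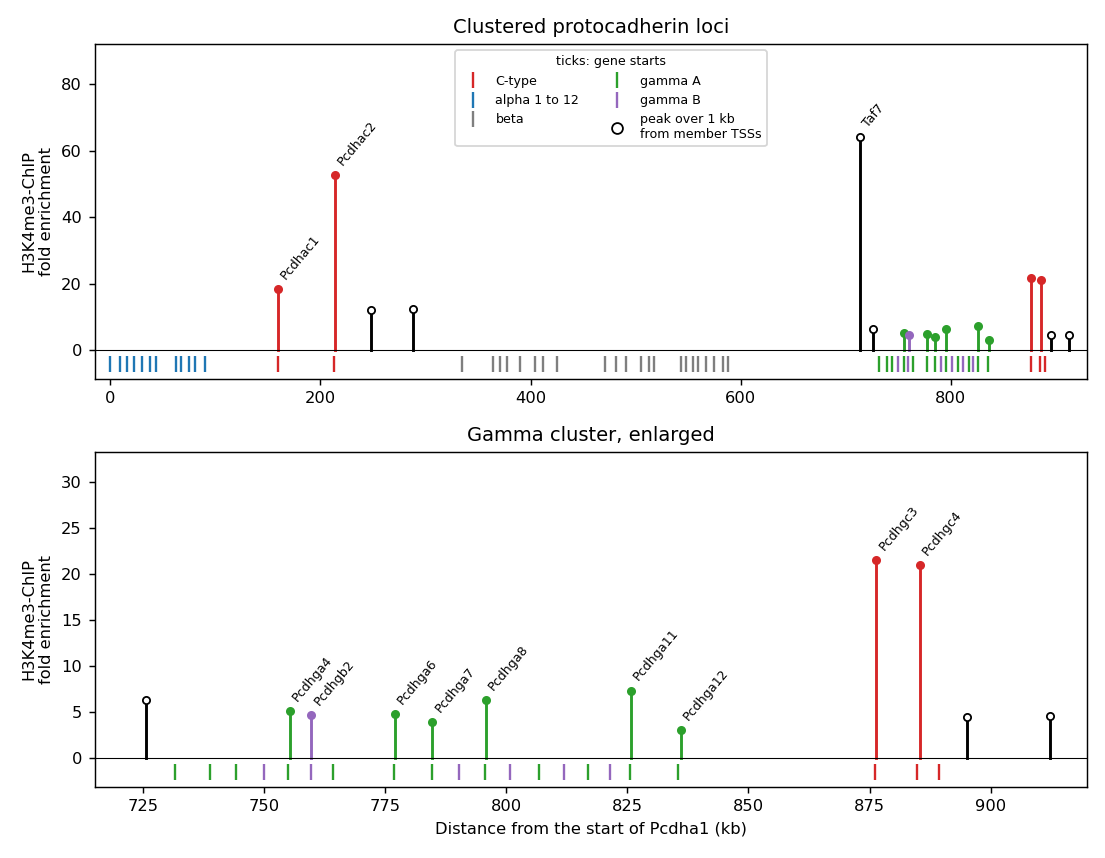
Fold enrichment of the 17 H3K4me3-ChIP peaks of the protocadherin locus (vertical axis, linear) by distance from the start of Pcdha1 in kb, for the whole locus above and the γ cluster below. Coloured ticks are member gene starts, filled circles are peaks within 1 kb of a member TSS, and open circles are the other 6 peaks. The 12 starts of α genes at the left and the 22 of β genes in the middle have no peak, the γA and γB peaks stay at or under 7.35-fold, and the C-type peaks reach from 18.4-fold to 52.8-fold.

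The C-type promoters carried the strongest H3K4me3 of the family. Pcdhac2, the last variable exon of the α cluster, had the highest fold enrichment, 52.8, above 83.8% of all H3K4me3-ChIP peaks. Its peak ran from 37143307 to 37144960 and had a −log10 q-value of 165. Pcdhac1, the other C-type exon of α, had a peak of 18.4-fold from 37089971 to 37090632, above 37.8% of the list. The 2 α genes of C-type thus differed 2.87-fold from each other in enrichment, with no replicate to set that difference against.

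In the γ cluster, Pcdhgc3 had a peak of 21.6-fold (37805880 to 37809170) and Pcdhgc4 one of 20.95-fold (37814381 to 37816145). These values were close to each other and lay above 42.0% and 41.2% of the list. The peak of Pcdhgc3 was 3291 bp wide, wider than 98.0% of the peaks in the list, and covered the first exon in full. An antisense gene, BC037039, has a TSS inside the same peak, and the mark carries no strand. Pcdhgc5, the last member of γ, was the C-type gene without a peak. The nearest H3K4me3-ChIP peak lay 3368 bp from its TSS, which made it the unmarked member closest to the 1 kb limit.

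The 7 marked genes of the γA and γB types had weaker and narrower peaks. Pcdhga11 was the highest at 7.35-fold (37755760 to 37756253), and Pcdhga12 the lowest at 3.07-fold (37766191 to 37766375). The others were Pcdhga8 at 6.29-fold, Pcdhga4 at 5.14-fold, Pcdhga6 at 4.76-fold, Pcdhgb2 at 4.64-fold and Pcdhga7 at 3.93-fold. The median of the 7 was 4.76 and that of the 4 C-type genes 21.3. The groups did not overlap: the lowest C-type value was 2.50 times the highest γA or γB value. Widths did not overlap either, with 185 to 494 bp for γA and γB against 662 to 3291 bp for C-type.

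Among all 13638 marked protein-coding genes, the median fold enrichment was 39.9 (interquartile range 25.8 to 52.8) and the median width 1406 bp. Of the marked members, only Pcdhac2 was above that median. The γA and γB peaks lay above 0.383% to 18.7% of the H3K4me3-ChIP list, at its lower end. Their −log10 q-values ran from 2.05 at Pcdhga12 to 13.0 at Pcdhga11. With a q-value under 1e-05 required, 9 members were marked, against 61.6% of all protein-coding genes, and the 2 that were lost were Pcdhgb2 and Pcdhga12.

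**Figure D2:**
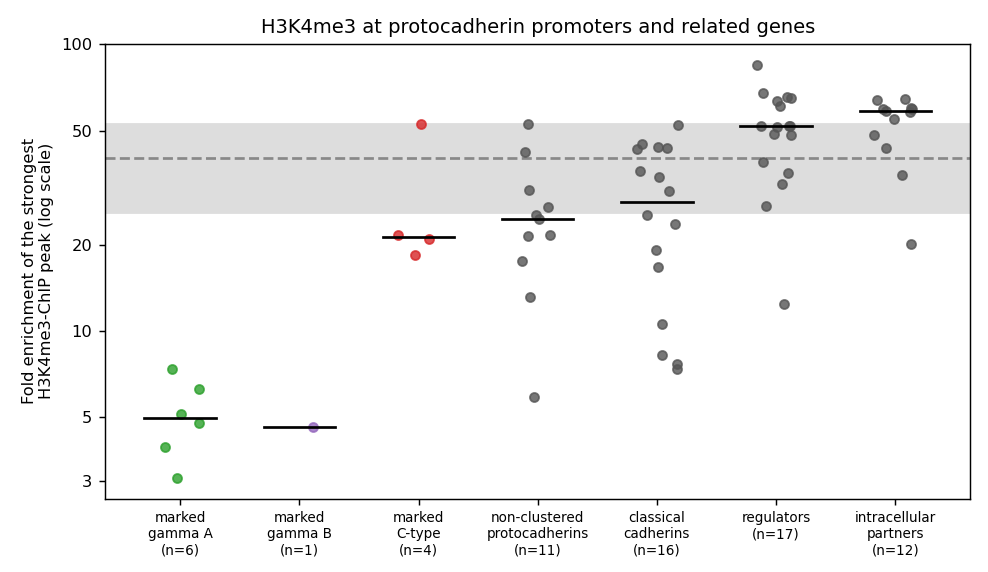
Fold enrichment (log axis) of the strongest H3K4me3-ChIP peak for each marked gene, 1 point per gene, by group, with the median as a black bar and the number of marked genes below. The grey band and dashed line are the interquartile range (25.8 to 52.8) and median (39.9) of all marked protein-coding genes, and the 7 γA and γB points, down to 3.07, and 3 of the 4 C-type points, from 18.4 to 21.6, lie below the band.

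The γA and γB peaks also had their own place on the gene. Each of the 7 began downstream of the gene's 5′ end and ended inside the variable first exon, which is 2542 to 2961 bp long in these genes. Among all marked protein-coding genes, the strongest peak lay wholly downstream of the 5′ end in 15.4%, and it did so in 52.9% of the 520 genes whose fold enrichment was at most 7.35. The peaks of 0 of the 4 marked C-type genes lay wholly downstream. The placement of the γ peaks was therefore common among weak peaks and less so among all.

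Summits of the γA and γB peaks lay from 99 bp (Pcdhgb2) to 305 bp (Pcdhga4) downstream of the 5′ end in all but Pcdhga12. The peak of Pcdhga12 began 611 bp into the gene, with its summit at 644 bp, which made it the marked member closest to the 1 kb limit. The C-type summits were at 112 bp in Pcdhac1, 244 bp in Pcdhgc3, 260 bp in Pcdhac2 and 481 bp in Pcdhgc4. These peaks crossed the 5′ end and reached from 42 bp upstream in Pcdhac1 to 698 bp upstream in Pcdhgc4. When the TSS itself had to lie inside the peak, 5 members remained, against 59.6% of all protein-coding genes. They were the 4 marked C-type genes and Pcdhga7, which has a second annotated TSS inside its peak.

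**Figure D3:**
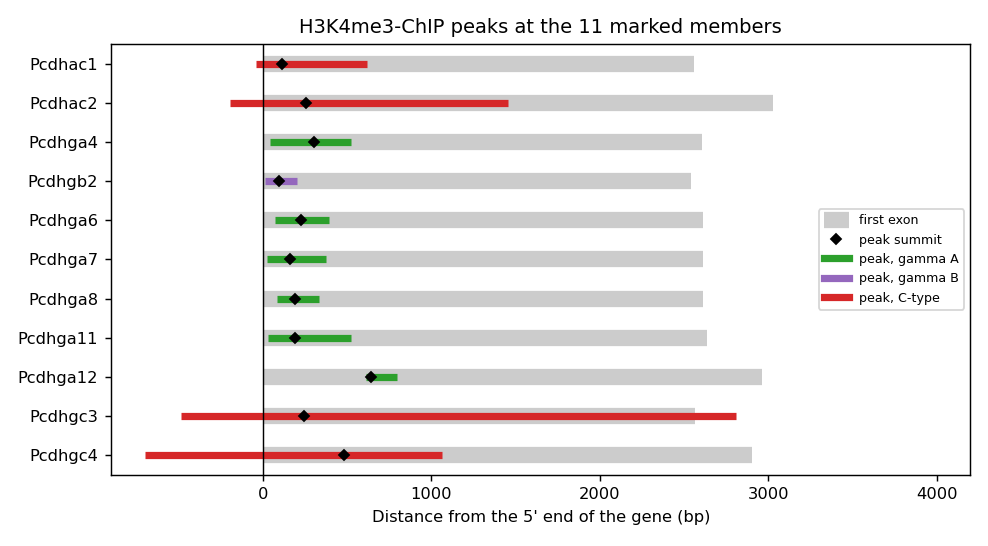
Extent of the H3K4me3-ChIP peak (coloured bar) and its summit (diamond) at the 11 marked members, by distance in bp from the 5′ end of the gene, with the first exon in grey. The γA and γB bars start right of 0 and stay within the first exon, and the 4 C-type bars cross 0.

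Marked and unmarked γ genes were mixed along the cluster. Pcdhga1, Pcdhga2, Pcdhga3 and Pcdhgb1, the first members from the 5′ side, were unmarked, and so were Pcdhga5, Pcdhgb4, Pcdhgb5, Pcdhga9, Pcdhgb6, Pcdhga10 and Pcdhgb7. Their nearest H3K4me3-ChIP peaks lay from 4.16 kb (Pcdhgb7) to 13.7 kb (Pcdhgb6) away. In a cluster where starts are a median of 5346 bp apart, these nearest peaks were in several cases those of the neighbouring genes. Each unmarked γA or γB gene was nearer to an H3K4me3-ChIP peak than any gene from Pcdha1 to Pcdha12 or of the β cluster.

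From Pcdha1 to Pcdha12 the nearest H3K4me3-ChIP peak was 69.8 kb (Pcdha12) to 144 kb (Pcdha3) away, with a median of 119 kb. For the β genes the distance ran from 46.6 kb (Pcdhb1) to 208 kb (Pcdhb12), with a median of 143 kb. The α genes lay in a stretch of 288 kb without an H3K4me3-ChIP peak, from 36802212 to 37089970, which ended at the peak of Pcdhac1. It held 15 protein-coding gene starts, the 12 α genes and the gene models Gm37013, Gm37388 and Gm42416. Those models start in the α cluster and end in the γ cluster.

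The β genes lay in a second such stretch of 425 kb, from 37218358 to 37643496. It held 23 protein-coding starts, the 22 β genes and Slc25a2, a mitochondrial ornithine carrier. Of 18795 stretches between neighbouring H3K4me3-ChIP peaks in the genome, 65 held more protein-coding starts than the α stretch and 42 held more than the β stretch. Longer stretches were more frequent, 1939 for α and 1284 for β. The 2 stretches stood out by the number of genes in them more than by their length.

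The genes at the borders of the locus were marked. Zmat2, which encodes a zinc finger protein of the spliceosome and precedes Pcdha1, had a peak of 56.9-fold. Diaph1, a formin that follows the γ cluster on the other strand, had one of 56.3-fold. Taf7, a subunit of the general transcription factor TFIID, lies between β and γ and had a peak of 64.1-fold (37643497 to 37644712). All of these exceeded the highest member, Pcdhac2.

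Of the 17 peaks of the locus, 6 lay over 1 kb from a member TSS. The Taf7 peak is 1 of them. A peak of 12.2-fold in the 3′ part of the α cluster (37178062 to 37178646) held the 5′ end of the antisense transcript Gm10544, and lay 34.6 kb from the TSS of Pcdhac2. A peak of 12.5-fold and 1383 bp between α and β (37216975 to 37218357) was 38453 bp from the nearest annotated TSS of any gene. A peak of 6.29-fold ahead of γ (37655645 to 37655843) was 64 bp from the lincRNA 3222401L13Rik. A peak of 4.42-fold (37825221 to 37825451) was 484 bp from the transcript Gm38182 and 5.66 kb from the TSS of Pcdhgc5, and a peak of 4.57-fold just past the 3′ end of γ (37841922 to 37842704) was 10703 bp from a TSS of Diaph1. With the TSSs of all annotated genes counted, 2 peaks of the locus stayed over 1 kb from a TSS, those between α and β and past the 3′ end of γ. Antisense genes also have TSSs close to marked members, Gm26672 inside the peak of Pcdhga11 and Gm37165 at 81 bp from that of Pcdhga8.

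NF-Y-ChIP gave no peak anywhere in the locus. A peak within 1 kb of a TSS was present at 0 of 57 members, which allows a share of up to 6.31%, against 3.14% of all protein-coding genes and 5.03% of the marked ones. By the wider rule of the authors, which takes in the gene body and 5 kb upstream, 0 members had a peak, against 3.69% of protein-coding genes. At the density of the NF-Y-ChIP list over the genome, 0.269 per Mb, a region of this size would hold 0.248 peaks. A count of 0 in 57 genes could therefore not show a shortage.

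The nearest NF-Y-ChIP peak lay upstream of the locus, outside the family. It ran from 36744473 to 36744667, had a fold enrichment of 5.96 and was 186 kb before Pcdha1, 16 bp from a TSS of Ndufa2, a subunit of respiratory complex I, and 115 bp from one of Ik, a splicing factor. The distance from a member to the nearest NF-Y-ChIP peak thus ran from 186 kb for Pcdha1 to 1075 kb for Pcdhgc5.

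The motif of NF-Y was present in promoters of the family without a peak on it. CCAAT, on either strand and so written as CCAAT or ATTGG, was searched in the GRCm38 reference of RefSeq from 250 bases before to 50 after the 5′ end of the gene. It was held by 21 of 57 members (36.8%) and by 39% of all protein-coding promoters. By type these were 4 of 12 α genes, 6 of 22 β, 6 of 12 γA, 2 of 6 γB and 3 of 5 C-type. Among the 11 marked members 5 held it, Pcdhga6, Pcdhga7, Pcdhga11, Pcdhgc3 and Pcdhgc4. Pcdhga11 and Pcdhgc3 each held 2 matches within 60 bases upstream of the 5′ end, Pcdhga11 at −55 and −30 and Pcdhgc3 at −58 and −28.

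Most promoters of the family are known to share a conserved sequence element with the core CGCT, which Pcdhac2, Pcdhb1, Pcdhgc4 and Pcdhgc5 are known to lack. CGCT or its complement AGCG was present in 55 of 57 member windows, against 67.1% of all protein-coding promoters. The 2 windows without it were those of Pcdhb22 and Pcdhga12, and both absences hold only for the starts used. The GENCODE start of Pcdhb22 lies 482 bp before its RefSeq start. Another annotated start of Pcdhga12 lies 418 bp from its H3K4me3-ChIP peak, against 611 bp for the TSS used. A narrower window, from 100 to 30 bases before the 5′ end, was chosen after the positions had been seen. There, CGCT on the strand of the gene was present in 41 of 57 members (71.9%) against 19.9% of all protein-coding genes, and CGCT on either strand in 45 members against 33.5%.

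The shares in this narrow window were 10 of 12 for α, 15 of 22 for β, 9 of 12 for γA, 5 of 6 for γB and 2 of 5 for C-type. The median position of the matches was −69 in α, −59 in β, −52 in γA and −67 in γB. The 16 members without a match included Pcdhac2, Pcdhb1, Pcdhgc4 and Pcdhgc5, and also Pcdha5, Pcdha10, 6 further β genes, Pcdhga2, Pcdhgb1, Pcdhga4 and Pcdhga12. Matches did not follow the H3K4me3 call: they were present in 5 of 7 marked and 9 of 11 unmarked γA and γB genes, and in 25 of 34 α and β genes, none of which was marked. The search covers the letters only.

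**Figure D4:**
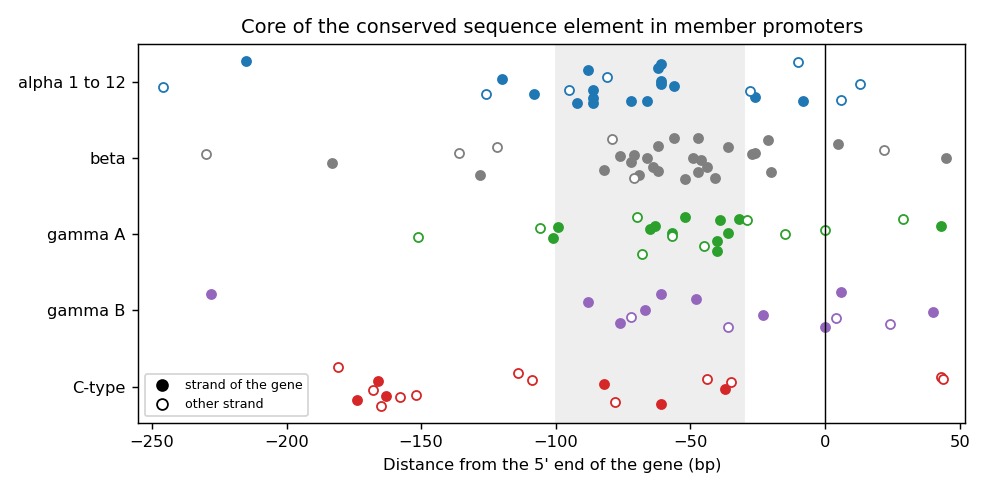
Positions of the core of the conserved element relative to the 5′ end of the gene (horizontal axis, bp), 1 circle per match, by type of member, filled where the match is on the strand of the gene. The shaded band runs from 100 to 30 bases upstream, and most filled circles of the α, β, γA and γB genes lie in it.

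CTCF, which folds the chromatin of the clusters, is known to bind their promoters. A strict 12-base core of its consensus, with 8 fixed letters that had to match exactly, was searched on both strands and was found in 0 of 57 windows, against 2.54% of all protein-coding promoters. The count moved with the window: 9 members held a match within 1000 bases to each side, against 13.3% of all genes, and 13 held one in the promoter window with 1 mismatch allowed, against 32%. A count of 0 says only that these letters are not in the window.

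Member promoters were poorer in GC than most promoters. The ratio of observed to expected CpG had a median of 0.521 in members, close to the 0.525 of all protein-coding genes and below the 0.738 of marked ones. The GC content, with a median of 39.7%, was lower than in all (55.0%) and in marked genes (60.3%). By type, the median CpG ratio was 0.658 in α, 0.427 in β, 0.510 in γA, 0.774 in γB and 0.595 in C-type. The median GC content was 37.8%, 39.5%, 41.8%, 41.0% and 54.7% in the same order. The C-type promoters had the highest median GC content, with a range from 47.3% in Pcdhgc4 to 62.0% in Pcdhgc3. This range overlapped those of γA, where Pcdhga9 had 49.0%, and of β, where Pcdhb1 had 48.3%.

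At a GC content from 30 to 50%, which covers most members, other genes of the same composition were marked more often than members when the CpG ratio was 0.4 or more. The bins were chosen after the data were seen, and members were left out of the comparison genes. At a GC content from 30 to 40% and a CpG ratio of at least 0.6, 2 of 11 members were marked, against 74.2% of 62 other genes. At 40 to 50% and the same ratio, 1 of 8 members was marked, against 87.3% of 592. Between 0.4 and 0.6, the members gave 2 of 9 against 39.0% of 100 at the lower GC content, and 1 of 10 against 60.9% of 713 at the higher one. Under 0.4 the order was reversed at the lower GC content, with 2 of 10 members against 6.39% of 1658 other genes. At the higher GC content it was kept, with 0 of 5 against 20.8% of 3944. By GC content alone, 6 of 30 members were marked against 10.5% of other genes at 30 to 40%, and 2 of 23 against 33.7% at 40 to 50%. From 50 to 60% it was 1 of 2 members against 64.3%, and from 60% upwards 2 of 2, Pcdhac1 and Pcdhgc3, against 93.8%.

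**Figure D5:**
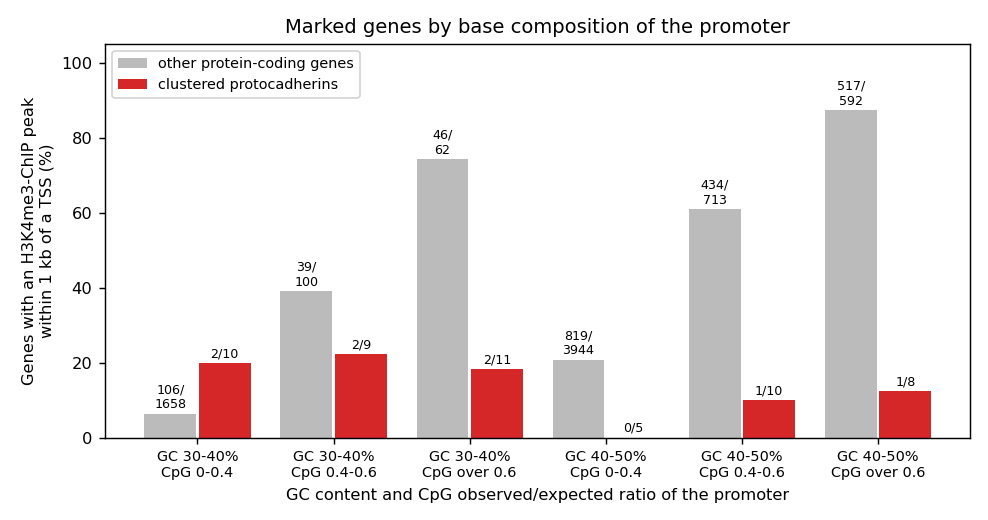
Share of genes marked by H3K4me3-ChIP (vertical axis, %) by GC content and CpG observed/expected ratio of the promoter, for members (red) and other protein-coding genes (grey) with a GC content from 30 to 50%, with counts above the bars. In the 4 bins with a CpG ratio of 0.4 or more, the share of members is below that of other genes.

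Within γA and γB, the marked genes had no higher CpG ratio than the unmarked ones, with medians of 0.521 and 0.571. Their GC content was lower, 36.3% against 43.0%. Across the 11 marked members, Pearson's r between the log2 fold enrichment and the GC content of the promoter was 0.84 (Spearman's rho 0.85), and r with the CpG ratio was 0.35 (rho 0.38). Within the 7 γA and γB genes r with the GC content was 0.67, and within the 4 C-type genes it was −0.34, so part of the relation lies in the gap between these types. The values describe genes of 1 library and 1 locus.

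Copies of a sequence can share reads, and the α, β and γ genes are paralogs. Within 1000 bases to each side of the gene start, the share of 50-base words that recur in the locus had a median of 8.71% in α (3.69% to 17.9%), 0% in β (0% to 12.7%), 0.179% in γA, 3.74% in γB and 0% in C-type. For each member, 82.1% or more of the words were found once in the locus. Whether reads with several matches were kept in the peak calling was not tested.

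The related gene lists had higher shares of marked genes than the clustered family. Of the 12 non-clustered protocadherins, adhesion proteins encoded by single genes elsewhere, 11 were marked, against the 62.1% of all protein-coding genes. Their fold enrichments ran from 5.90 to 52.5, with a median of 24.5 and a median width of 3123 bp. Pcdh12, known from endothelium and placenta, was the one without a peak. Of 19 classical and related cadherins 16 were marked (median 28.1), and the others were Cdh5 of endothelium, Cdh15 of muscle and Cdh19 of Schwann cell precursors. These lists, like the C-type genes, had medians below that of all marked genes.

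The genes whose products act on or with the family had higher medians than all marked genes (39.9-fold), and again 62.1% of all protein-coding genes were marked. All 17 regulators on the list, among them Ctcf, cohesin subunits, DNA methyltransferases and Smchd1, were marked, with a median of 51.8-fold and the highest value at the cohesin subunit Rad21 (84.9). Of 13 intracellular partners, such as the kinase Fyn and members of the WAVE complex, 12 were marked with a median of 58.4-fold, and Ptk2b was not.

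NF-Y-ChIP peaks were present at 1 of the 12 non-clustered protocadherins and 1 of the 17 regulators, at 0 of the 13 intracellular partners and at 0 of the 19 cadherins. These counts are near the shares of all (3.14%) and of marked (5.03%) protein-coding genes, and the sites are shown because the clustered family has none. Pcdh19, a non-clustered protocadherin on the minus strand of the X chromosome (133582860 to 133688987), had an NF-Y-ChIP peak of 6.31-fold from 133688965 to 133689169, rank 414 in the list. Smc3, a cohesin subunit on the plus strand of chromosome 19 (53600398 to 53645833), had one of 4.64-fold from 53600050 to 53600244, rank 630. Their H3K4me3-ChIP fold enrichments were 27.2 and 64.8. The motif in capitals lay within 50 bp of the summit in both. The bases are those of GRCm38 at chrX:133689044-133689068 and chr19:53600069-53600093. They are read on the strand of the gene, minus for Pcdh19 and plus for Smc3.
Pcdh19: ctgcgcgctgATTGGctagtgcctg
Smc3: gcgctcggcgATTGGctccgctcgt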

How the data were processed

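The ChIP-seq covered input, NF-Y-ChIP and H3K4me3-ChIP of E13.5 cortices, 1 library each, with 50 cycles from each end. The authors trimmed the reads, aligned them to mm10 with Bowtie2 2.2.8 and called peaks with MACS2 2.1.2, with a threshold on the p-value (0.001) for NF-Y-ChIP or on the q-value (0.05) for H3K4me3-ChIP. Input served the study as a negative control. Whether MACS2 used it as the control file is not given in the sources used here, and input was not analysed here. The deposited fold enrichment is a ratio to the local background, and p-value and q-value are deposited as −log10. The lists were told apart by the deposited score, which followed the p-value in 733 of 733 NF-Y-ChIP peaks and the q-value in 18816 of 18816 H3K4me3-ChIP peaks. Values were used as deposited, and positions are 1-based.

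Gene starts came from GENCODE M21 and differed from RefSeq by up to 482 bp. Pcdhgb8, a polymorphic pseudogene there, was left out. The strongest peak within 1 kb was used. Promoters were 300 bases at the gene's 5′ end. The genes named were the C-type members, the members with the highest or lowest value or no peak in each type, listed genes with an NF-Y-ChIP peak or without an H3K4me3-ChIP peak, border genes and genes nearest to other peaks of the locus, and further ones were chosen after their values were seen. The members and lists were chosen with earlier results of these data known. Alternatives covered distances, TSS sets, thresholds, windows and motifs. On simulated data, 1000 of 1000 peak distances and 900 of 900 placed motifs were recovered. Python 3.11.15, pandas 2.3.3, SciPy 1.17.1, pysam 0.24.0 and matplotlib 3.10.9 were used. Some values of marker and flanking genes are not reported here.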

Additional observations from a re-analysis of the deposited data

How the results depend on the processing

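Of 108 values under other settings, 94 stayed and 14 moved. A count stayed when it was equal to or within 1.5 times the reported value. The median fold enrichment and the median CpG ratio stayed when they lay within a confidence interval of the reported median. With the TSS required inside the peak, 5 members were marked, against 59.6% of all protein-coding genes. With H3K4me3-ChIP peaks at or above the median fold enrichment only, 1 member was marked (Pcdhac2), against 44.8% of all protein-coding genes, and the counts were 3 for non-clustered protocadherins and 8 for classical cadherins. Peaks of the locus away from TSSs numbered 2 with the TSSs of all annotated genes in place of 6. The CTCF core was found in 1 member from 500 bases before to 100 after the TSS, in 9 within 1000 bases to each side and in 13 with 1 mismatch. The α and β genes stayed at 0 marked, and NF-Y-ChIP at 0 members, under the alternatives run. For the narrow CGCT window, RefSeq starts gave 40 members and a window from 150 to 1 bases before the TSS gave 47, where the share of all protein-coding genes was also higher (34.4%).

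No paired analysis was possible because each antibody has 1 library, and for the same reason no replicate was left out. Depth is unknown, so the weak peaks of γA and γB genes and the missing peaks of α and β genes hold for this depth only. The fold enrichments lie in 1 list and can be ranked there, but carry no error. Whole tissue holds several cell types, and a mark in few cells cannot be told apart from a weak mark in many.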
